A study of Mus musculus with 36 samples.

Results

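The genes described here are 39 mouse genes tied to ATF4, the transcription factor of the integrated stress response, out of 20960 gene entries in 3 deposited RNA-seq tables. They comprised 11 stress regulators, 6 enzymes of serine and one-carbon metabolism, 5 other amino acid enzymes, 8 amino acid transporters, 5 tRNA synthetases, and a group of 4 made of 3 secreted factors and a translation repressor. All 39 were listed in every table, and their values are given over all 20 expression libraries. The list was drawn up with results of these same libraries known. Lower Ddit3 and Aldh1l2 under TGFβ in the pancreatic cancer cells were among those results, so the comparisons of TGFβ with its inhibitor in those cells, and their difference between genotypes, are given as description with no p-value and support nothing. For the same reason Ddit3 and Aldh1l2 carry no p-value in any comparison within those cells.

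The study set cells labelled KO beside cells labelled WT for Rreb1, which encodes a transcription factor with zinc fingers. The KSIC_806 pancreatic ductal adenocarcinoma (PDA) cells received TGFβ (100 pM, 1.5 h) or SB505124, which blocks the TGFβ type I receptor kinase (2.5 µM, 6 h), with 2 libraries for each of KO under TGFβ, KO under SB505124, WT under TGFβ and WT under SB505124. All 8 PDA libraries carry the mark S4, which the labels do not explain, and the treatments differed in length as well as in agent. E14 mouse embryonic stem cells labelled KO or WT were sampled as embryoid bodies (EBs) at day 4 and as stem cells at day 0, again with 2 libraries each. Organoids of pancreatic epithelial cells received doxycycline (dox, 1 µg/mL) or none, and then TGFβ or SB505124 at the doses and times of the PDA cells, with 1 library in each of the 4 conditions. The labels do not say what the dox induced or whether each KO line was 1 clone. Nor do they say that libraries of a group were grown apart, so a p-value here measures spread between libraries that may be technical only.

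In the integrated stress response, kinases that sense misfolded protein, missing amino acids, viral RNA or lack of haem phosphorylate the initiation factor eIF2. Most translation then falls while Atf4 mRNA is translated better, and ATF4 protein switches on genes that import and make amino acids, charge tRNAs and, in long stress, bring on DDIT3 (CHOP). ATF4 binds with C/EBP partners to composite sites called C/EBP-ATF response elements, while the chaperones of the endoplasmic reticulum (ER) answer to ATF6 and XBP1, often through ER stress elements. Mouse embryonic stem cells and pancreatic cancer cells are both known for heavy use of amino acid and one-carbon metabolism.

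To show these sites, 5 member promoters and that of Hspa5, the main ER chaperone (BiP), are printed from the RefSeq promoters (GRCm38.p6), as the 250 bases before the transcript start used there, in the direction of the gene. That start was the outer end of the annotated gene in Chac1, Asns, Nupr1 and Hspa5, and lay inside it by 6064 bases in Aars and 55474 bases in Slc7a11. Capitals mark a match to TGATGNAA, the core of the composite element, on either strand, and in Hspa5 a match to the ER stress element, searched on both strands as CCAAT, any 9 bases, then CCACG.
Chac1 promoter: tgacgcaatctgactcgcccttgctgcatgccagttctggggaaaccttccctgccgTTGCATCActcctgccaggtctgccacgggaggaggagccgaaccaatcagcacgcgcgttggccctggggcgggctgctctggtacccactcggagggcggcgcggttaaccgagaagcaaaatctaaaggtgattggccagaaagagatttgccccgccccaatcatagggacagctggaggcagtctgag
Asns promoter: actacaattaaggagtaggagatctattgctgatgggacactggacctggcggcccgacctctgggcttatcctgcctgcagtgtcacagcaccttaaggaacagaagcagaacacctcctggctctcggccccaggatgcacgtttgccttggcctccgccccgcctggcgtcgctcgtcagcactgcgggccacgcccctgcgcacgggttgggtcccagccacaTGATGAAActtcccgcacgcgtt
Slc7a11 promoter: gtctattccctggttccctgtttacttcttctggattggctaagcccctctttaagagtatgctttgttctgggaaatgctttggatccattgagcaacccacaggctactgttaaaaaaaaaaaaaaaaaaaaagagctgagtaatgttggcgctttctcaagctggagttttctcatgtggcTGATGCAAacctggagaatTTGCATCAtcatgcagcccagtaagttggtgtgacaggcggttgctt
Nupr1 promoter: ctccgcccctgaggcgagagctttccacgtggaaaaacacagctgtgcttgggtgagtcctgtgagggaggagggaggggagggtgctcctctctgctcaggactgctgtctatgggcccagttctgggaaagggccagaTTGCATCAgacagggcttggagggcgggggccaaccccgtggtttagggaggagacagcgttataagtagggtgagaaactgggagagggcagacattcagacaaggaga
Aars promoter: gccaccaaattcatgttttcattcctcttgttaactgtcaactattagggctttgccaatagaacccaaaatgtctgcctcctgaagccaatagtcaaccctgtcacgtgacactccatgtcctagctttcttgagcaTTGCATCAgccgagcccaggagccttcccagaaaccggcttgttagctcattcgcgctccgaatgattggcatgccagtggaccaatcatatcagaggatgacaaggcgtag
Hspa5 promoter: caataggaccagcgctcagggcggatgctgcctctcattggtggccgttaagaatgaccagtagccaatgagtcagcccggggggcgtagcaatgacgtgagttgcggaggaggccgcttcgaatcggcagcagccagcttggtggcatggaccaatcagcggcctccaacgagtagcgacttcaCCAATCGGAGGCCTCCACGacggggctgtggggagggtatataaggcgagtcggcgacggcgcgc
The windows lie at chr2:119350992-119351241, plus strand for Chac1, chr6:7693210-7693459, minus strand for Asns, chr3:50443614-50443863, minus strand for Slc7a11, chr7:126625471-126625720, minus strand for Nupr1, chr8:111033592-111033841, plus strand for Aars and chr2:34771840-34772089, plus strand for Hspa5. The match began 193 bases before the start in Chac1, 23 in Asns, 110 in Nupr1 and 112 in Aars, and Slc7a11 held 2 matches, 66 and 47 bases before its start. Promoters were matched by symbol for 31 of the 39 members, with none for Aldh1l2, Slc7a5, Slc7a3, Slc1a5, Cth, Nars, Wars and Eif4ebp1. Over windows of 300 bases, 250 before and 50 after the start, TGATGNAA stood in 11 of the 31 members (35.5%), namely Trib3, Chac1, Asns, Slc7a11, Slc1a4, Nupr1, Pck2, Aars, Gars, Fgf21 and Jdp2, against 1219 of 27025 genes in the RefSeq table (4.51%). The ER stress element stood in none of the 31, in 37 of the 27025 genes (0.137%) and in 7 of 17 promoters of ER chaperone and XBP1 or ATF6 branch genes, where TGATGNAA stood in 1, that of Herpud1. The members were listed for ties to ATF4, so their share is set beside that of all genes as description only. More than 1 window was searched for Atf5, Psat1, Slc7a1, Slc6a9, Jdp2 and Gdf15, and of these Jdp2 held a match. A match describes the sequence only, and the 2 motifs did not overlap in the windows shown.

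Depth ran from 20.41 to 44.5 M reads in the PDA libraries, 19.89 to 29.08 M in the EB libraries and 23.91 to 35.81 M in the organoids. Values are normalised read counts, so levels are compared between libraries of a table and not between genes. Rreb1 mRNA was lower in the libraries labelled KO under TGFβ in PDA cells and higher under SB505124 and in stem cells at day 0, as it stood at 2886 and 2560.4 in KO PDA cells under TGFβ, against 4293 and 4212 in WT, at 2164 and 2195 in KO under SB505124, against 1458 and 1501 in WT, and at 2642 and 2830.03 in KO stem cells, against 1085 and 1019 in WT. The labels do not say where in the gene the edit lies, so the mRNA level does not check them, and KO and WT here name libraries by their labels. The 6 markers of pancreatic epithelium summed to 178859 to 232890 in the organoid libraries, 332235 to 515568 in the PDA libraries and 18610 to 33372 in the stem cell and EB libraries. They were uneven in PDA cells, where Epcam was at 68.4 to 357, and Sox9 at 25.5 to 40.8 in KO, against 89.9 to 452 in WT. The 5 markers of pluripotent stem cells had a summed value of 95796 to 106989 in day 0 libraries. The 3 of them found in the PDA table, Pou5f1, Nanog and Zfp42, summed to 0 to 1.84 in the PDA libraries. Of 3 endothelial markers, Cdh5 stood at 920 to 1358 in KO PDA cells, against 38.5 to 55.7 in WT PDA cells, while Pecam1 and Kdr stayed at 7.34 or below in both. Of 6 early mesoderm and endoderm genes, 5 were found in the PDA table, with a sum under SB505124 of 8977 to 9760 in KO, against 3081 to 3304 in WT. Sox17 and Foxa2 were higher in KO, with Sox17 at 5952 and 6579 in KO, against 759 and 852 in WT, under SB505124. Eomes was lower, at 18.1 and 14.7 in KO, against 205 and 179 in WT, and T and Mixl1 were at 0.918 or below. These markers moved with the KO label in PDA cells, and their part in the results below was not tested.

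**Figure D1:**
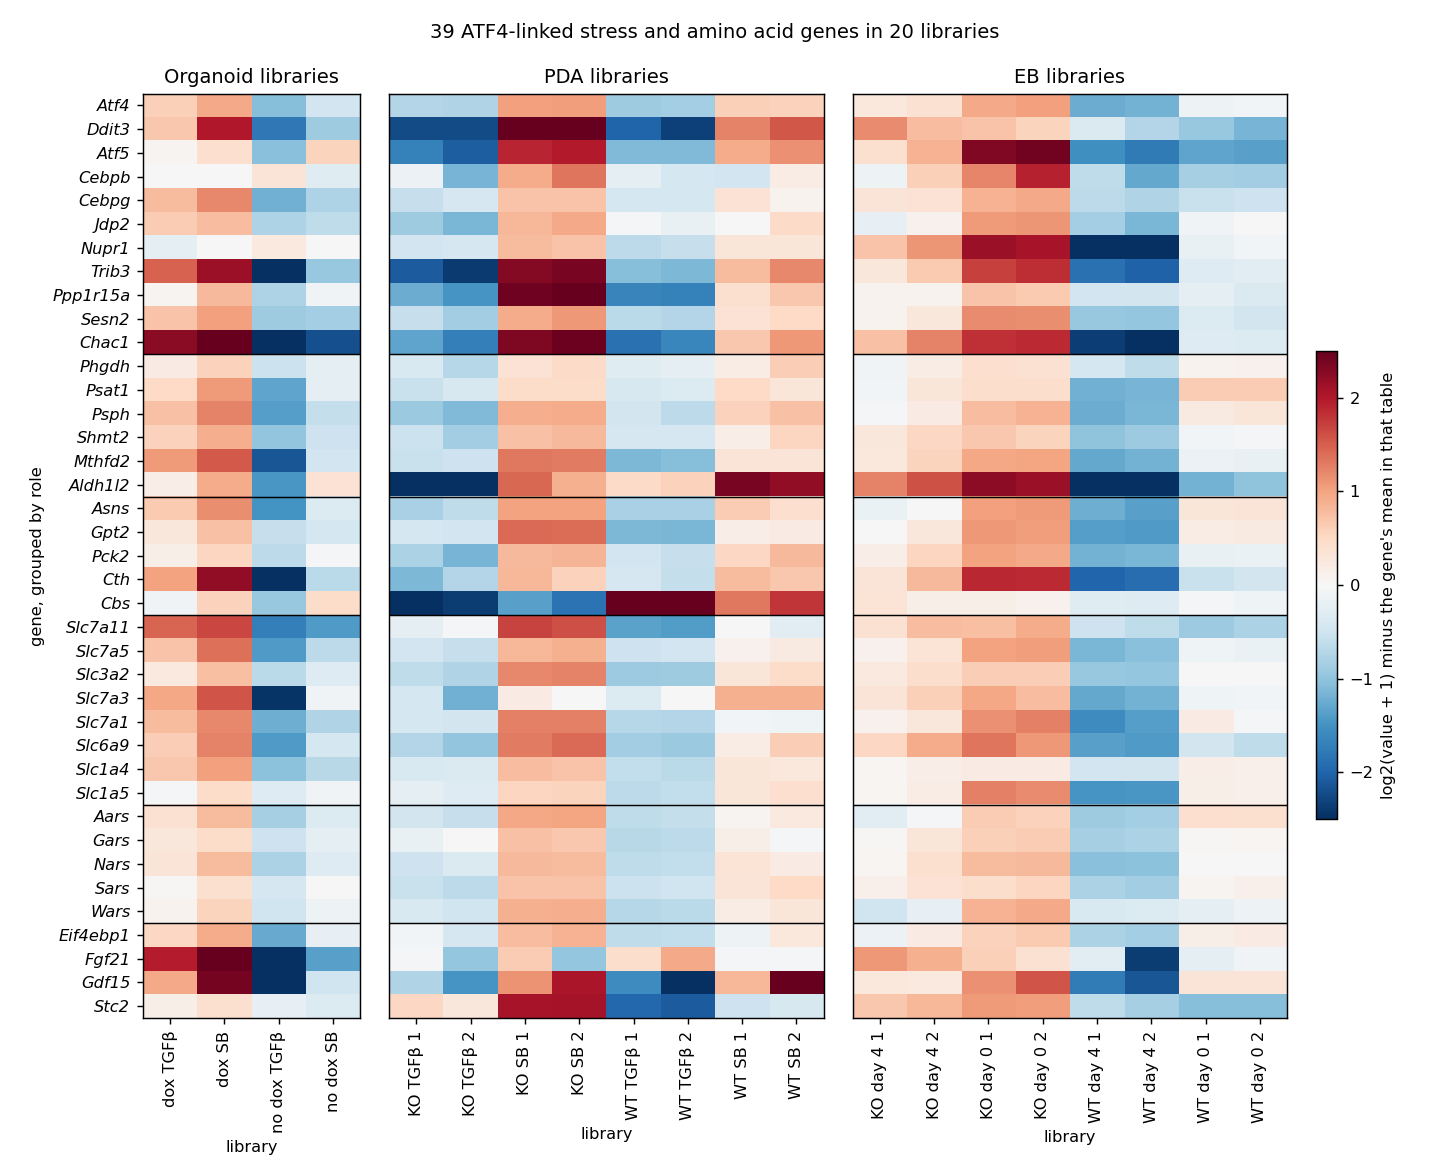
Each row is a member, grouped by role and in the order stress regulators, serine and one-carbon enzymes, other amino acid enzymes, transporters, tRNA synthetases and secreted factors, and each column is a library. Colour gives log2(value + 1) minus the gene's mean in that table, with red high and blue low. KO cells under SB505124, KO stem cells at day 0 and organoids with dox form the red columns, and Cbs departs from the other rows in the PDA cells.

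In PDA cells most members were lower under TGFβ than under SB505124, in both genotypes. In KO cells 37 of 38 tested members passed the call lower and none higher, with 18% of 13226 tested genes called lower and 20.6% higher. In WT cells 35 passed lower and 1, Cbs, higher, with 17.6% of genes called lower and 19.4% higher. The call was an adjusted p under 0.05 in limma, over all tested genes. The median log2 fold change of the members, on the log2(value + 1) scale, was −1.71 in KO and −1.10 in WT, beside 0.02 in KO and 0.00 in WT over all tested genes. Rescaling each library to the same total changed the share of genes called in KO cells to 13.6% lower and 29% higher and left the members at 37 lower. Since these are bulk samples, fewer cells of a type and less RNA per cell cannot be told apart.

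Among the stress regulators, Atf4 itself (chr15:80255184-80257545) stood at 8996 and 8950.4 in KO cells under TGFβ, against 30501 and 30865 in KO cells under SB505124, and at 8105 and 8287 in WT cells under TGFβ, against 22549 and 22224 in WT cells under SB505124. Both treatments were apart in each genotype, with no overlap. Over all tested genes, TGFβ lay below SB505124 without overlap in 32.3% in KO and 34.5% in WT, and above in 37.0% in KO and 35.4% in WT. Ddit3, which encodes the stress factor CHOP, stood at 146 and 146 in KO cells under TGFβ, against 5712 and 5477 in KO cells under SB505124, and at 171 and 137 in WT cells under TGFβ, against 1629.9 and 2035 in WT cells under SB505124. Its log2 fold change under TGFβ was −5.25 ± 0.14 in KO and −3.56 ± 0.14 in WT (SE). Trib3, whose product is a pseudokinase that damps ATF4 signalling, stood at 286 and 229 in KO cells under TGFβ, against 5911 and 6257 in KO cells under SB505124, and at 578 and 551 in WT cells under TGFβ, against 2103 and 2779 in WT cells under SB505124. Chac1, encoding an enzyme that degrades glutathione, stood at 374 and 287 in KO cells under TGFβ, against 4743 and 5165 in KO cells under SB505124, and at 257 and 304 in WT cells under TGFβ, against 1492 and 1990.05 in WT cells under SB505124. For Trib3 the KO libraries under TGFβ were the lowest of the 8 and the KO libraries under SB505124 the highest, while for Chac1 the TGFβ libraries of the genotypes interleaved. Atf5, a sister factor of Atf4, stood at 496 and 387 in KO cells under TGFβ, against 6042 and 6334 in KO cells under SB505124, and at 753 and 753 in WT cells under TGFβ, against 3061 and 3538 in WT cells under SB505124. Sesn2, encoding a leucine sensor of the mTORC1 pathway, stood at 626 and 508 in KO cells under TGFβ, against 1788 and 1989 in KO cells under SB505124, and at 584 and 559 in WT cells under TGFβ, against 1199 and 1318 in WT cells under SB505124. Nupr1, for a small stress-linked chromatin protein, stood at 2492 and 2603 in KO cells under TGFβ, against 6048 and 5751 in KO cells under SB505124, and at 2224 and 2326 in WT cells under TGFβ, against 4325 and 4307 in WT cells under SB505124. All 3 had TGFβ libraries below SB505124 libraries in both genotypes, and of the 11 regulators Cebpb and Jdp2 did not pass the call in WT. Ppp1r15a, which encodes the GADD34 subunit that reverses eIF2 phosphorylation, had a log2 fold change of −3.83 ± 0.12 in KO and −2.21 ± 0.12 in WT.

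All 6 serine and one-carbon enzymes passed the call lower under TGFβ in both genotypes. In WT the call for Phgdh was lost without WT replicate 1 (log2 fold change −0.64) or replicate 2 (−0.69) under TGFβ. Phgdh, the first enzyme of serine synthesis, stood at 9134 and 7226 in KO cells under TGFβ, against 15250.4 and 16422 in KO cells under SB505124, and at 9677 and 10023 in WT cells under TGFβ, against 13426 and 18196 in WT cells under SB505124. Psat1, the second, stood at 11196 and 12466 in KO cells under TGFβ, against 22717 and 22673 in KO cells under SB505124, and at 12516 and 13098 in WT cells under TGFβ, against 23218 and 20337 in WT cells under SB505124. For both genes all TGFβ libraries lay below all SB505124 libraries. Aldh1l2, a mitochondrial folate enzyme, stood at 4.53 and 3.64 in KO cells under TGFβ, against 215 and 147 in KO cells under SB505124, and at 111 and 118 in WT cells under TGFβ, against 414 and 373 in WT cells under SB505124. Its KO libraries under TGFβ were near the floor of detection, as 3 reads were worth 2.72 and 2.73 in these libraries, and its log2 fold change was −5.14 ± 0.21 in KO and −1.77 ± 0.21 in WT. Mthfd2, the mitochondrial folate dehydrogenase, had a log2 fold change of −1.85 ± 0.06 in KO and −1.42 ± 0.06 in WT, and Psph, the last enzyme of serine synthesis, one of −1.93 ± 0.10 in KO and −1.21 ± 0.10 in WT.

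Of the other amino acid enzymes, Asns, which makes asparagine, stood at 5029 and 5653 in KO cells under TGFβ, against 17582 and 17584 in KO cells under SB505124, and at 5025 and 5002 in WT cells under TGFβ, against 13629.7 and 11709 in WT cells under SB505124. Cbs, the first enzyme of the transsulfuration of homocysteine, stood at 3.63 and 5.46 in KO cells under TGFβ, against 12.1 and 8.26 in KO cells under SB505124, and at 228 and 197 in WT cells under TGFβ, against 82.6 and 115 in WT cells under SB505124. Cbs was thus higher under TGFβ in WT cells and lower in KO cells, with KO levels below every WT level. The KO values of Cbs were near the floor of detection. There 3 reads were worth 6.03 and 2.75 under SB505124 and 2.72 and 2.73 under TGFβ. In WT the call for Cbs was lost when WT replicate 1 under SB505124 or either WT library under TGFβ was left out. Cth, the next enzyme of that pathway, had a log2 fold change of −1.63 ± 0.16 in KO and −1.25 ± 0.16 in WT.

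Among the transporters, Slc7a11, the cystine importer xCT, stood at 10709 and 12207 in KO cells under TGFβ, against 40296 and 38234 in KO cells under SB505124, and at 4922 and 4748 in WT cells under TGFβ, against 12426 and 10243 in WT cells under SB505124. The KO cells under SB505124 stood above all others, and the KO cells under TGFβ overlapped the WT cells under SB505124. Slc7a3, an arginine and lysine carrier, was low in these cells, at 9.97 and 5.46 in KO cells under TGFβ, against 16.1 and 13.8 in KO cells under SB505124, and at 10.7 and 13.9 in WT cells under TGFβ, against 26.6 and 26.4 in WT cells under SB505124. Slc6a9, the glycine carrier GLYT1, had a log2 fold change of −2.22 ± 0.14 in KO and −1.30 ± 0.14 in WT. Slc3a2, the heavy chain that partners Slc7a5 and Slc7a11, had one of −1.92 ± 0.07 in KO and −1.28 ± 0.07 in WT. The 5 tRNA synthetases, which load amino acids onto tRNAs, were all lower under TGFβ, by −1.50 to −0.80 in KO and −0.94 to −0.73 in WT on the log2 scale.

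Stc2, encoding the secreted glycoprotein stanniocalcin 2, stood at 865 and 735 in KO cells under TGFβ, against 2506 and 2555 in KO cells under SB505124, and at 154 and 142 in WT cells under TGFβ, against 421 and 456 in WT cells under SB505124. Its 4 groups were apart, and KO libraries under TGFβ stood above WT libraries under SB505124. Gdf15, a stress cytokine, stood at 3.63 and 1.82 in KO cells under TGFβ, against 16.1 and 31.2 in KO cells under SB505124, and at 1.64 and 0 in WT cells under TGFβ, against 12.8 and 51.1 in WT cells under SB505124. It passed the filter on low values only through the SB505124 libraries, so its difference was bound to appear. Fgf21, a stress hormone, stood at 1.64 and 2.78 in WT cells under TGFβ and no higher in the other PDA libraries, and was the member left untested.

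**Figure D2:**
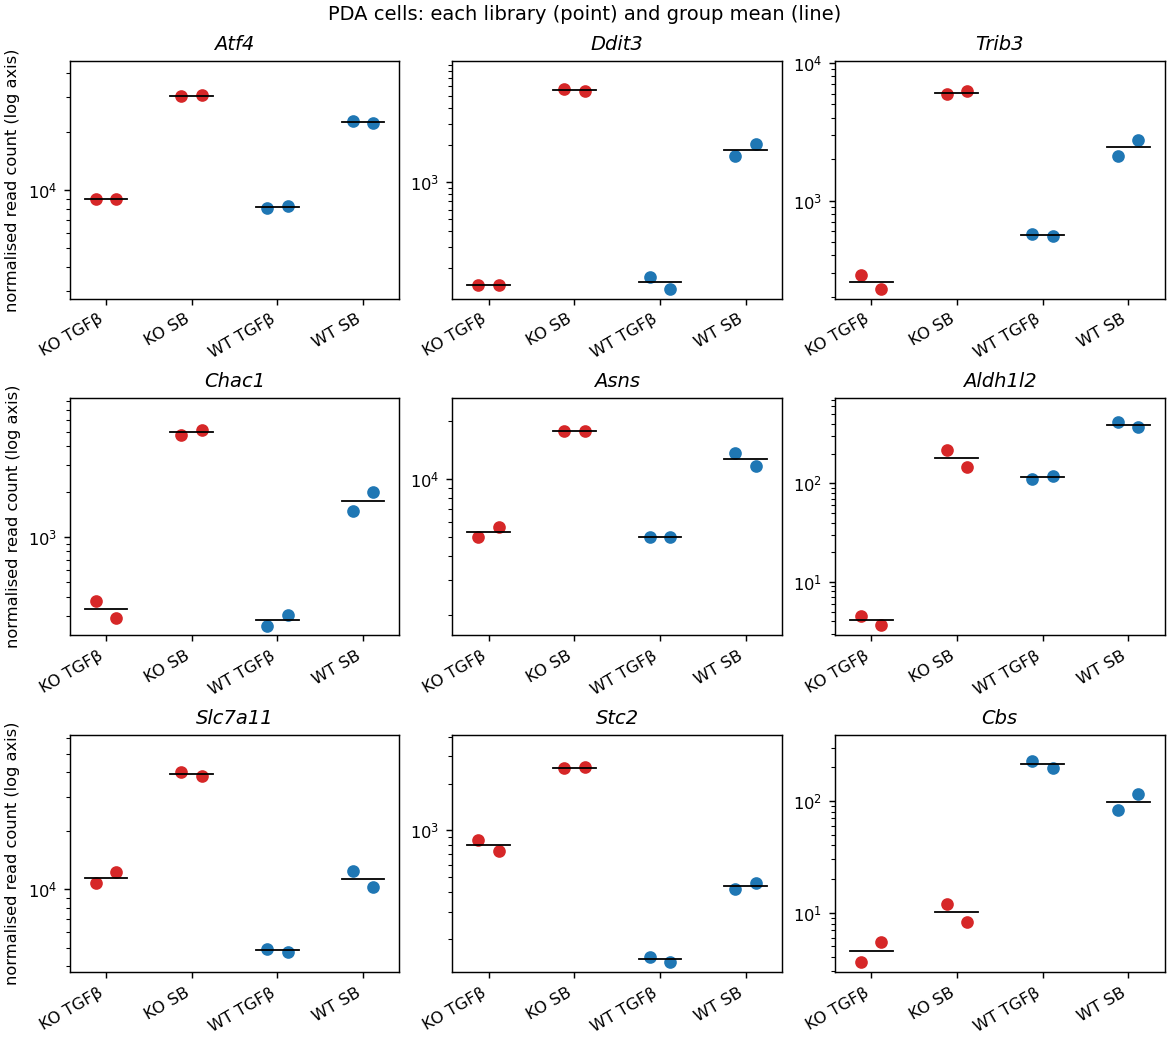
Normalised read counts (log axis) of 9 members in the 8 PDA libraries, with KO in red and WT in blue, points for libraries and lines for group means. Each gene except Cbs in WT cells lies lower under TGFβ than under SB505124, and Cbs under TGFβ stands at 197 to 228 in WT, above its SB505124 level.

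The log2 fold change of TGFβ against SB505124 was called lower in KO than in WT for 23 of 38 members and higher for none. Of all tested genes, 12.1% were called lower and 9.71% higher. Such a difference can lie in the SB505124 levels, the TGFβ levels or both. The 23 include Cbs, which was higher under TGFβ in WT. After rescaling to the same total 10.5% of genes were called lower and 14.1% higher. The count fell to 11 when either WT library under TGFβ was left out and to 12 when either KO library under SB505124 was left out. The difference was −3.37 ± 0.30 for Aldh1l2, −2.47 ± 0.21 for Trib3, −1.69 ± 0.18 for Atf5 and −1.69 ± 0.20 for Ddit3 on the log2 scale. These contrasts share their libraries with the comparisons of KO and WT that follow. Since the list was made with results of the TGFβ contrasts known, the p-values for KO against WT in PDA cells are not independent of that choice.

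Under SB505124, KO cells had higher levels of most members than WT cells. Leaving out Ddit3 and Aldh1l2, 27 of 36 tested members rose and 1, Cbs, fell in KO, against 28.9% of 13226 tested genes called higher and 27.2% lower, or 22.5% higher and 37.1% lower after rescaling, when 25 of these members rose and 2 fell. Their median log2 fold change was 0.61, beside 0.00 over all genes, and rescaling moved the median of all genes by −0.15. The 10 stress regulators other than Ddit3 all rose, among them Atf4 (0.45 ± 0.05, adjusted p = 0.000307), Trib3 (1.33 ± 0.15, adjusted p = 0.000237), Chac1 (1.52 ± 0.18, adjusted p = 0.000255) and Ppp1r15a (1.93 ± 0.12, adjusted p = 1.08e-05). Atf5 rose by 0.91 ± 0.12, adjusted p = 0.000605, Sesn2 by 0.58 ± 0.12, adjusted p = 0.00401, Nupr1 by 0.45 ± 0.06, adjusted p = 0.000762 and Cebpb, a C/EBP partner of ATF4, by 1.28 ± 0.34, adjusted p = 0.0147. The call for Cebpb was lost without WT replicate 1 (log2 fold change 0.95) or KO replicate 2 (1.07). The KO and WT libraries under SB505124 did not overlap for any of these regulators. Over all tested genes, KO lay above WT without overlap in 38.4% and below in 38.3%, so lack of overlap is common with 2 libraries a group.

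The enzymes of serine synthesis did not pass the test under SB505124. Phgdh differed by 0.02 ± 0.16, adjusted p = 0.931, Psat1 by 0.06 ± 0.08, adjusted p = 0.556 and Psph by 0.25 ± 0.10, adjusted p = 0.0665, the last of which passed without WT replicate 2 (log2 fold change 0.33, adjusted p = 0.0391). Among one-carbon enzymes Mthfd2 rose by 0.99 ± 0.06, adjusted p = 9.7e-06. Asns rose by 0.48 ± 0.09, adjusted p = 0.00283 and Gpt2, an alanine aminotransferase, by 1.22 ± 0.06, adjusted p = 5.71e-06. Cbs was lower by 3.16 ± 0.29, at 12.1 and 8.26 in KO, against 82.6 and 115 in WT. It passed the filter on low values only through the WT libraries, so this difference was bound to appear and carries no p-value. Cth differed by −0.04 ± 0.16, adjusted p = 0.864. Of the 8 transporters 6 rose, with Slc7a11 at 1.80 ± 0.10, adjusted p = 9.27e-06, Slc7a1, the main arginine carrier, at 1.35 ± 0.05, adjusted p = 1.77e-06 and Slc6a9 at 0.96 ± 0.14, adjusted p = 0.000913. Slc7a3 differed by −0.79 ± 0.33, adjusted p = 0.072, and passed as lower without either KO library under TGFβ (adjusted p = 0.0467 and 0.0428). All 5 tRNA synthetases rose, 4 of them also after rescaling, by 0.30 to 0.82. Stc2 showed the largest rise among members, at 2.53 ± 0.11, adjusted p = 2.11e-06, while Gdf15 differed by −0.19 ± 0.74, adjusted p = 0.841.

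Under TGFβ the members were split between the genotypes. Again without Ddit3 and Aldh1l2, 9 members rose and 6 fell in KO, against 21.2% of genes called higher and 19% lower (17.8% higher and 25% lower after rescaling), and the median log2 fold change was 0.09. Atf4 differed by 0.13 ± 0.05, adjusted p = 0.0938, Chac1 by 0.23 ± 0.18, adjusted p = 0.336, Asns by 0.09 ± 0.09, adjusted p = 0.467 and Sesn2 by −0.02 ± 0.12, adjusted p = 0.92, none of them past the test. Trib3 (−1.14 ± 0.15, adjusted p = 0.000712), Atf5 (−0.78 ± 0.12, adjusted p = 0.00188) and Jdp2 (−0.90 ± 0.16, adjusted p = 0.00343), a bZIP factor that can pair with ATF family members, were the regulators that fell. Stc2 (2.42 ± 0.11, adjusted p = 2.76e-06), Slc7a11 (1.24 ± 0.10, adjusted p = 6.29e-05), Gpt2 (0.68 ± 0.06, adjusted p = 0.000118), Gars (0.58 ± 0.09, adjusted p = 0.00138) and Mthfd2 (0.55 ± 0.06, adjusted p = 0.000199) rose. Cbs was lower by 5.28 ± 0.29 in KO. It passed the filter on low values only through the WT libraries, so this difference was bound to appear and carries no p-value. Its KO values of 3.63 and 5.46 were near the floor of detection, so the size of the difference is uncertain. Stc2, Slc7a11, Gpt2, Gars and Mthfd2 were thus among the members that rose in KO cells under both treatments. Trib3, Atf5 and Jdp2 rose under SB505124 and fell under TGFβ.

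In the embryonic stem cell system the KO libraries stood above the WT libraries for nearly every member. At day 4, 38 of 39 rose in KO and none fell, against 27.8% of 15227 tested genes called higher and 28.4% lower (22.5% higher and 35% lower after rescaling). At day 0, 35 rose and none fell, against 33.9% called higher and 33.3% lower. The median log2 fold change of the members was 1.32 at day 4 and 1.08 at day 0, beside −0.01 at day 4 and 0.00 at day 0 over all genes. The 4 that did not pass at day 0 were Cbs, Fgf21, Psat1 and Slc1a4, and Wars, the tryptophan tRNA synthetase, did not pass at day 4 (0.01 ± 0.09, adjusted p = 0.93). Of these, Cbs passed at day 0 when KO day 4 replicate 1 or 2 was left out (adjusted p = 0.0336 and 0.0327), and Fgf21 when WT day 4 replicate 2 was left out (0.0472).

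The stress regulators all rose in KO on both days. Atf4 stood at 9868 and 10712 in KO, against 3453 and 3595 in WT at day 4, and at 15766 and 16766 in KO, against 7529 and 7805 in WT at day 0. Its log2 fold change was 1.54 ± 0.07, adjusted p = 2.52e-10 at day 4 and 1.08 ± 0.07, adjusted p = 7.24e-09 at day 0. Atf5 stood at 2059 and 2828 in KO, against 534 and 455 in WT at day 4, and at 7681 and 8275 in KO, against 618 and 604 in WT at day 0. With 3.70 ± 0.12, adjusted p = 1.56e-11, it had the largest rise of any member at day 0. Trib3 stood at 2077 and 2682 in KO, against 469.96 and 421 in WT at day 4, and at 5589.9 and 6136 in KO, against 1366 and 1394 in WT at day 0. Chac1 stood at 1673 and 2371 in KO, against 197 and 159 in WT at day 4, and at 3580.4 and 3679 in KO, against 809.6 and 791 in WT at day 0. For both the KO libraries of each day were above every WT library of either day. Nupr1 stood at 1498 and 1969 in KO, against 157 and 97.0 in WT at day 4, and at 4062 and 3799.5 in KO, against 799 and 871 in WT at day 0 (3.79 ± 0.17, adjusted p = 2.87e-10 at day 4). Sesn2 stood at 5073 and 5815 in KO, against 2479.6 and 2453 in WT at day 4, and at 10738 and 10670 in KO, against 3734 and 3452 in WT at day 0 (1.58 ± 0.07, adjusted p = 5.18e-10 at day 0). Ddit3 stood at 1196 and 899 in KO, against 408 and 317 in WT at day 4, and at 861 and 774 in KO, against 272 and 235 in WT at day 0, and rose by 1.69 ± 0.14, adjusted p = 1.53e-07 at day 0. No KO library overlapped a WT library of the same day for these genes. Cebpb rose by 2.42 ± 0.27, adjusted p = 2.47e-06 and Cebpg, another C/EBP partner of ATF4, by 1.44 ± 0.07, adjusted p = 5.94e-10 at day 0.

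Among the one-carbon enzymes, Aldh1l2 stood at 1112 and 1424 in KO, against 78.8 and 83.0 in WT at day 4, and at 2227 and 2092 in KO, against 205 and 233 in WT at day 0. Its rise of 3.94 ± 0.12, adjusted p = 8.26e-12 was the largest of any member at day 4, whereas in PDA cells its level was lower in KO than in WT under both treatments. Psat1 stood at 10416 and 13383 in KO, against 4721 and 4871 in WT at day 4, and at 14776 and 14794 in KO, against 16908 and 17059 in WT at day 0. It was the member whose KO libraries lay below WT at day 0 (−0.20 ± 0.09, adjusted p = 0.0672), and it passed the test as lower there when either KO library of day 4 was left out (adjusted p = 0.00501 without replicate 1 and 0.0050 without replicate 2), after quantile normalisation (0.0176), after rescaling to the same total (0.0250), and in edgeR (0.0447) and DESeq2 (0.0481). At day 4 it rose by 1.30 ± 0.09, adjusted p = 2.83e-08. Phgdh stood at 3719.9 and 4491 in KO, against 2899.5 and 2537 in WT at day 4, and at 5264 and 5150.5 in KO, against 4188 and 4239 in WT at day 0 (0.31 ± 0.09, adjusted p = 0.0065 at day 0, and 0.106 after quantile normalisation). Mthfd2 rose by 1.15 ± 0.08, adjusted p = 3.22e-08 at day 0 and 1.64 ± 0.08, adjusted p = 1.02e-09 at day 4, and Shmt2, the mitochondrial serine hydroxymethyltransferase, by 1.36 ± 0.08, adjusted p = 4.55e-09 at day 4.

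Asns stood at 12369.5 and 13992 in KO, against 5951 and 5439.5 in WT at day 4, and at 28252 and 29152 in KO, against 17022 and 17269.9 in WT at day 0, and rose by 1.21 ± 0.08, adjusted p = 7.54e-09 at day 4. Cth stood at 4732 and 6651 in KO, against 955 and 1001 in WT at day 4, and at 13918 and 13820.3 in KO, against 2581 and 2742 in WT at day 0, and rose by 2.38 ± 0.11, adjusted p = 5.49e-10 at day 0. Its neighbour in transsulfuration, Cbs, differed by 0.20 ± 0.09, adjusted p = 0.0638 at day 0 and rose by 0.56 ± 0.09, adjusted p = 0.000111 at day 4. Gpt2 rose by 1.53 ± 0.08, adjusted p = 1.92e-09 and Pck2, the mitochondrial phosphoenolpyruvate carboxykinase, by 1.51 ± 0.09, adjusted p = 5.63e-09 at day 4.

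Of the transporters, Slc7a3 stood at 6744 and 8116 in KO, against 2218 and 2367 in WT at day 4, and at 10463 and 9209 in KO, against 4963 and 5110.2 in WT at day 0, and rose by 1.69 ± 0.09, adjusted p = 1.12e-09 at day 4. Slc7a11 stood at 351 and 456 in KO, against 188 and 173 in WT at day 4, and at 451 and 514 in KO, against 143 and 155 in WT at day 0, and rose by 1.69 ± 0.14, adjusted p = 1.2e-07 at day 0. Slc6a9 rose by 2.10 ± 0.13, adjusted p = 5.1e-09 at day 4 and 1.76 ± 0.13, adjusted p = 2.58e-08 at day 0. Slc7a1 rose by 1.67 ± 0.09, adjusted p = 2.41e-09 and Slc1a5, the glutamine carrier ASCT2, by 1.57 ± 0.07, adjusted p = 2.33e-10 at day 4. The tRNA synthetases rose by 0.21 to 1.10 at day 0, all 5 past the test. Stc2 stood at 1872 and 2081 in KO, against 757 and 658 in WT at day 4, and at 2458 and 2421 in KO, against 566 and 563 in WT at day 0, and rose by 2.11 ± 0.08, adjusted p = 1.38e-10 at day 0. Gdf15 stood at 167 and 165 in KO, against 40.4 and 30.8 in WT at day 4, and at 306 and 416 in KO, against 174 and 173 in WT at day 0, and rose by 2.20 ± 0.18, adjusted p = 1.46e-07 at day 4. Fgf21 stood at 50.9 and 44.4 in KO, against 19.2 and 3.73 in WT at day 4, and at 35.6 and 30.6 in KO, against 19.8 and 21.8 in WT at day 0, and rose by 2.31 ± 0.49, adjusted p = 0.00102 at day 4.

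**Figure D3:**
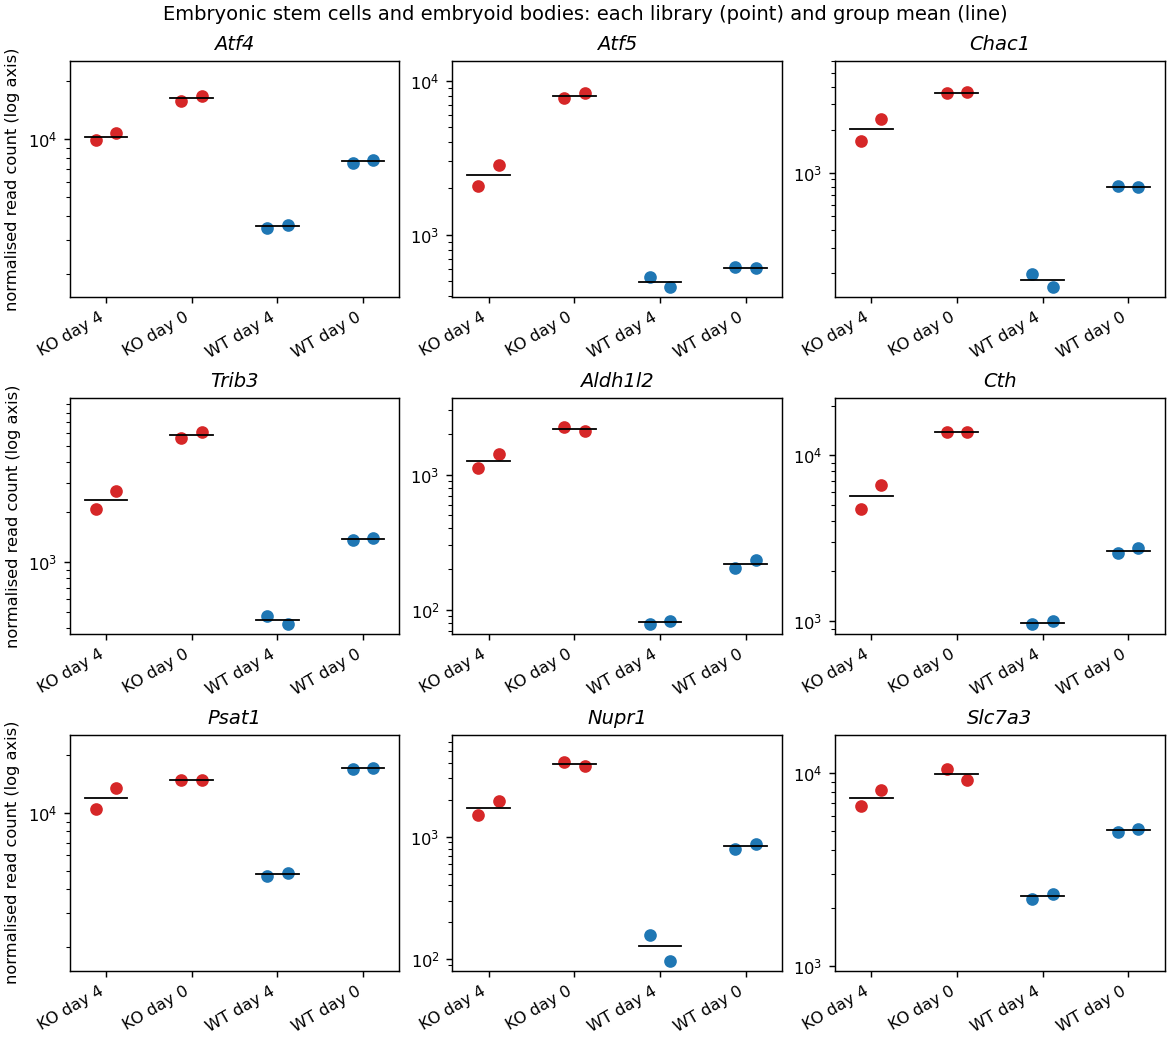
Normalised read counts (log axis) of 9 members in the 8 embryonic stem cell and EB libraries, with KO in red and WT in blue, points for libraries and lines for group means. The KO libraries of each day lie above the WT libraries of that day in every panel except Psat1, which at day 0 stood at 14776 and 14794 in KO and 16908 and 17059 in WT. Over all tested genes, KO lay above WT without overlap in 37.7% at day 4 and 42.4% at day 0.

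Most members were lower at day 4 than at day 0 in both genotypes. In KO 34 of 39 fell and none rose, against 30.9% of genes called lower and 29.1% higher, and in WT 32 fell and 2, Ddit3 and Stc2, rose, against 30.8% of genes called lower and 32.3% higher. The largest falls in WT were in Nupr1 (−2.75 ± 0.17, adjusted p = 5.46e-09), Gdf15 (−2.27 ± 0.18, adjusted p = 8.65e-08), Chac1 (−2.17 ± 0.13, adjusted p = 5.32e-09) and Psat1 (−1.82 ± 0.09, adjusted p = 6.88e-10), and those in KO were in Atf5 (−1.72 ± 0.12, adjusted p = 2.35e-08), Cebpb (−1.34 ± 0.27, adjusted p = 0.000729), Cth (−1.31 ± 0.11, adjusted p = 2.32e-07) and Trib3 (−1.31 ± 0.10, adjusted p = 9.52e-08). The rise of Ddit3 in WT (0.51 ± 0.14, adjusted p = 0.00689) was not called when WT day 0 replicate 2 (log2 fold change 0.40) or WT day 4 replicate 1 (0.33) was left out, and that of Stc2 (0.32 ± 0.08, adjusted p = 0.00419) was not called without WT day 4 replicate 1 (0.22). Ddit3 also lay higher at day 4 in KO, at 1196 and 899, against 861 and 774 at day 0. Its log2 fold change of 0.34 there was not called. It passed in edgeR (adjusted p = 0.0232), in DESeq2 (0.0355), after rescaling (0.0441) and with the replicate block (0.0077), but not without the filter.

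The change from day 0 differed between KO and WT for 31 members, with 23 changes more positive in KO and 8 more negative, against 27.1% of genes called more positive and 28.6% more negative. On the log2 scale the difference was 1.56 ± 0.24, adjusted p = 8.49e-05 for Nupr1, 1.50 ± 0.13, adjusted p = 4.3e-07 for Psat1 and 1.31 ± 0.19, adjusted p = 4.89e-05 for Chac1. It was −1.41 ± 0.17, adjusted p = 8.49e-06 for Atf5 and −1.09 ± 0.12, adjusted p = 5.2e-06 for Wars. Atf4 itself differed by 0.46 ± 0.10, adjusted p = 0.00101. The 5 pluripotency markers summed to 61166 to 62313 in KO EBs at day 4, against 31006 to 31504 in WT EBs. Pou5f1, Sox2, Esrrb and Zfp42 were each higher in the KO EBs, and Nanog was lower, at 5026 and 4998 in KO, against 6266 and 6643 in WT. Over 6 early mesoderm and endoderm genes the sum was 747 to 768 in KO EBs, against 3867 to 6610 in WT EBs, and over 5 fibroblast markers it was 70.0 to 88.3 in KO EBs, against 2738 to 3746 in WT EBs. The part of these markers in the day 4 results was not tested. At day 0, where the members' median was 1.08, the pluripotency sum was 102627 to 106989 in KO and 95796 to 96952 in WT, with Pou5f1 lower, at 20829.5 and 21349.5 in KO, against 27993 and 28711 in WT, and the other 4 higher in KO.

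Most members stood higher with dox than without in the organoids, where each condition had 1 library and no test was made. Under TGFβ 26 of 39 members were at least 2-fold higher with dox and none lower, against 7.84% of 13443 genes higher and 9.6% lower. Under SB505124 26 were at least 2-fold higher and none lower, against 7.93% of genes higher and 9.57% lower. The median log2 ratio was 1.62 under TGFβ and 1.41 under SB505124. The ratios below carry exact 95% intervals that cover counting error only, since there was no replicate check.

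Chac1 stood at 5984 with dox, against 154 without under TGFβ, and at 9576 with dox, against 272 without under SB505124. The ratio was 38.8 (32.9 to 46.0) under TGFβ and 35.2 (31.5 to 39.5) under SB505124. Trib3 stood at 5699 with dox, against 319 without under TGFβ, and at 9046 with dox, against 1068 without under SB505124, with ratios of 17.8 (15.9 to 20.1) under TGFβ and 8.47 (7.98 to 8.98) under SB505124. Both libraries with dox were above both libraries without for these regulators. Atf4 stood at 15269 with dox, against 4800.1 without under TGFβ, and at 19289.8 with dox, against 7251 without under SB505124. Ddit3 stood at 1265 with dox, against 229 without under TGFβ, and at 3177 with dox, against 431 without under SB505124. Sesn2 stood at 3526 with dox, against 1154 without under TGFβ, and at 4351 with dox, against 1193 without under SB505124. Not all regulators followed. Atf5 stood at 3494 with dox, against 1609 without under TGFβ, and at 4439 with dox, against 4857 without under SB505124, a ratio of 0.914 (0.881 to 0.948) under SB505124. Nupr1 stood at 6179 with dox, against 8645 without under TGFβ, and at 7216 with dox, against 7398 without under SB505124. Its ratio was 0.715 (0.691 to 0.740) under TGFβ and 0.975 (0.947 to 1.00) under SB505124, whereas in KO EBs at day 4 it was among the members that rose most.

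Among the enzymes, Psat1 stood at 8447 with dox, against 2394 without under TGFβ, and at 12425 with dox, against 5039 without under SB505124. Phgdh stood at 11468 with dox, against 6913 without under TGFβ, and at 14906 with dox, against 8413 without under SB505124. Aldh1l2 stood at 2638 with dox, against 855 without under TGFβ, and at 4447 with dox, against 3002 without under SB505124. Each was higher with dox, Phgdh by less than 2-fold under both treatments and Aldh1l2 by less than 2-fold under SB505124. Asns stood at 5726 with dox, against 1286 without under TGFβ, and at 8113 with dox, against 2861 without under SB505124. Slc7a11 stood at 4436 with dox, against 498 without under TGFβ, and at 5135 with dox, against 609.8 without under SB505124. Slc7a3 stood at 708 with dox, against 66.2 without under TGFβ, and at 1079 with dox, against 345 without under SB505124. The transporters were at least 2-fold higher with dox in 6 of 8 under TGFβ and 7 of 8 under SB505124, against 7.84% and 7.93% of all genes. Gdf15 stood at 1966 with dox, against 141 without under TGFβ, and at 5336 with dox, against 720.4 without under SB505124. Fgf21 stood at 148 with dox, against 3.15 without under TGFβ, and at 231 with dox, against 13.8 without under SB505124. Stc2 stood at 1237 with dox, against 974 without under TGFβ, and at 1472 with dox, against 883 without under SB505124. Gdf15 and Fgf21 had ratios of 7.41 (6.89 to 7.97) and 16.7 (10.1 to 29.6) under SB505124, while the ratio of Stc2 was 1.67 (1.55 to 1.80).

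**Figure D4:**
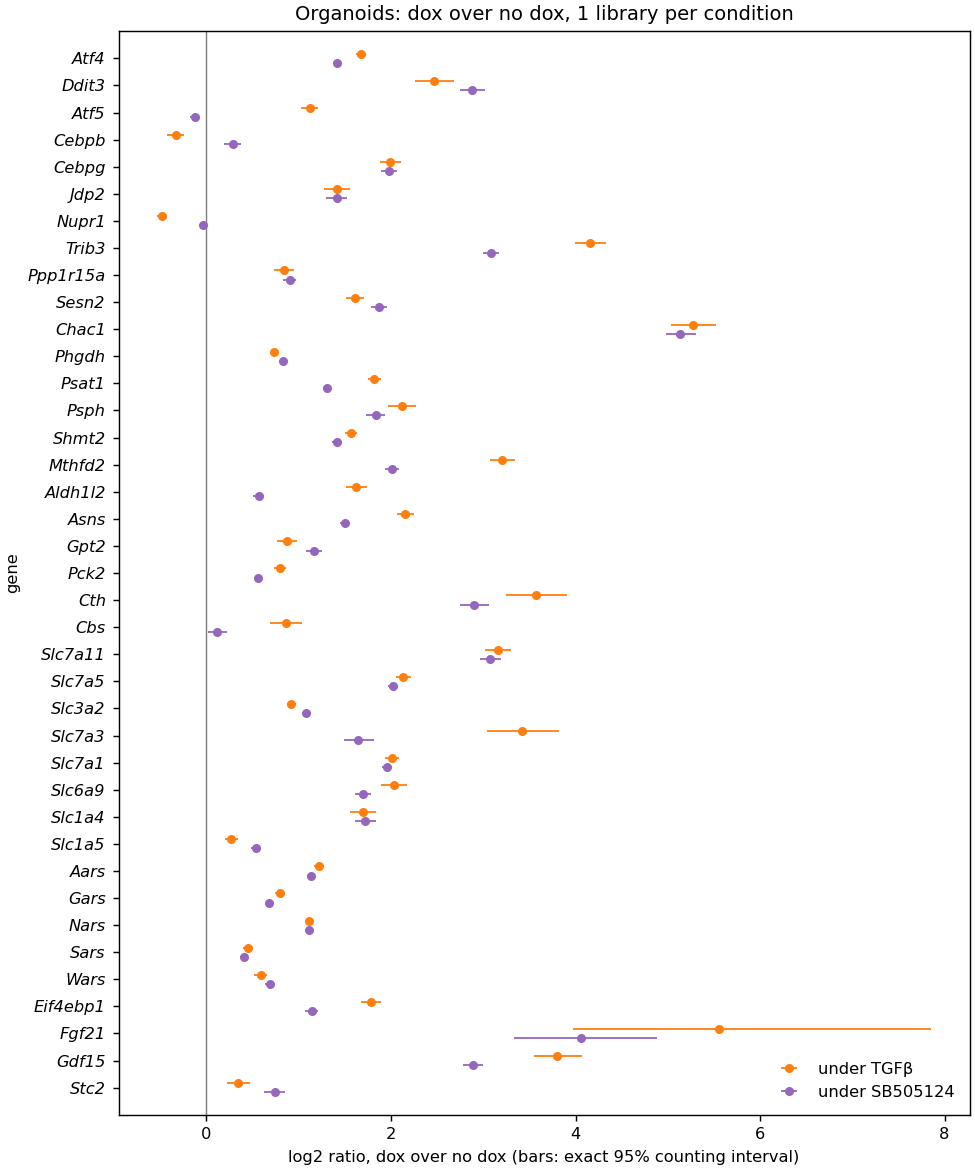
Log2 ratio of the deposited value with dox over the value without, for the 39 members, under TGFβ (orange) and SB505124 (purple), with bars for exact 95% counting intervals. Chac1, Fgf21 and Trib3 lie far to the right, and Nupr1 lies at or left of 0 under both treatments.

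In the organoids the members' median log2 ratio of TGFβ to SB505124 was −0.46 with dox and −0.60 without. With dox 3 members, Ddit3, Cth and Gdf15, were at least 2-fold lower under TGFβ and none higher, against 3.24% of genes lower and 3.52% higher. Without dox 12 were at least 2-fold lower and none higher, against 2.85% of genes lower and 3.56% higher. The ratio of Ddit3 was 0.398 (0.373 to 0.426) with dox and 0.531 (0.451 to 0.624) without, and that of Atf4 was 0.792 (0.775 to 0.808) with dox and 0.662 (0.638 to 0.686) without. Slc7a3 (0.192 (0.145 to 0.251)), Gdf15 (0.195 (0.162 to 0.235)), Cth (0.271 (0.212 to 0.344)), Aldh1l2 (0.285 (0.264 to 0.308)) and Trib3 (0.299 (0.263 to 0.339)) were among the lowest ratios without dox.

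The list of 20 ER chaperone and XBP1 or ATF6 branch genes moved with the members in PDA cells. This list and those below were also chosen with earlier results of these data known, so their counts are given as description. Under SB505124 19 of the 20 rose in KO and none fell, with a median of 0.81, against 28.9% of all tested genes higher and 27.2% lower. Under TGFβ against SB505124 20 of 20 were called lower in KO (median −2.65) and 19 in WT (median −1.39). Of all tested genes, 18% were called lower in KO and 17.6% in WT. Ern1 went the other way in WT, at 1288 and 1250 under TGFβ, against 1024 and 961 under SB505124. Hspa5 stood at 22119 and 24788 in KO cells under TGFβ, against 637255 and 613929 in KO cells under SB505124, and at 21864 and 21478 in WT cells under TGFβ, against 241085 and 204920 in WT cells under SB505124. It held 1.50 to 1.55% of all reads in KO cells under SB505124, against 0.559 to 0.652% in WT cells under SB505124. The TGFβ libraries of both genotypes lay at or below 24788, and the lowest SB505124 library at 204920.

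In the embryonic stem cell system, in KO against WT, the chaperone list had 4 genes higher and 12 lower at day 4 (median −0.27), against 27.8% of all genes higher and 28.4% lower. It had 6 higher and 8 lower at day 0 (median −0.10), against 33.9% of all genes higher and 33.3% lower. Hspa5 stood at 11223 and 10681 in KO, against 15346 and 15481 in WT at day 4, and at 10008 and 10585 in KO, against 10794 and 11027 in WT at day 0. Herpud1, an ER-associated degradation gene and 1 of the 6 higher at day 0, stood at 3094 and 3317 in KO, against 639 and 584 in WT at day 0 and rose by 2.39 ± 0.10, adjusted p = 1.78e-10. It was the 1 gene of the list with TGATGNAA in its promoter window, and a link of that match to its rise was not tested. With dox the list had 0 genes at least 2-fold higher and 1 lower under TGFβ (median 0.05), against 7.84% of all genes higher and 9.6% lower. Under SB505124 it had 1 higher and 1 lower (median 0.14), against 7.93% of all genes higher and 9.57% lower. Xbp1, whose product drives many of these chaperones, was the lower gene both times, at 12133 with dox, against 28166 without under TGFβ, and at 16011 with dox, against 33175 without under SB505124. No test of the difference between the 2 lists was run, and each is given by its counts and medians.

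**Figure D5:**
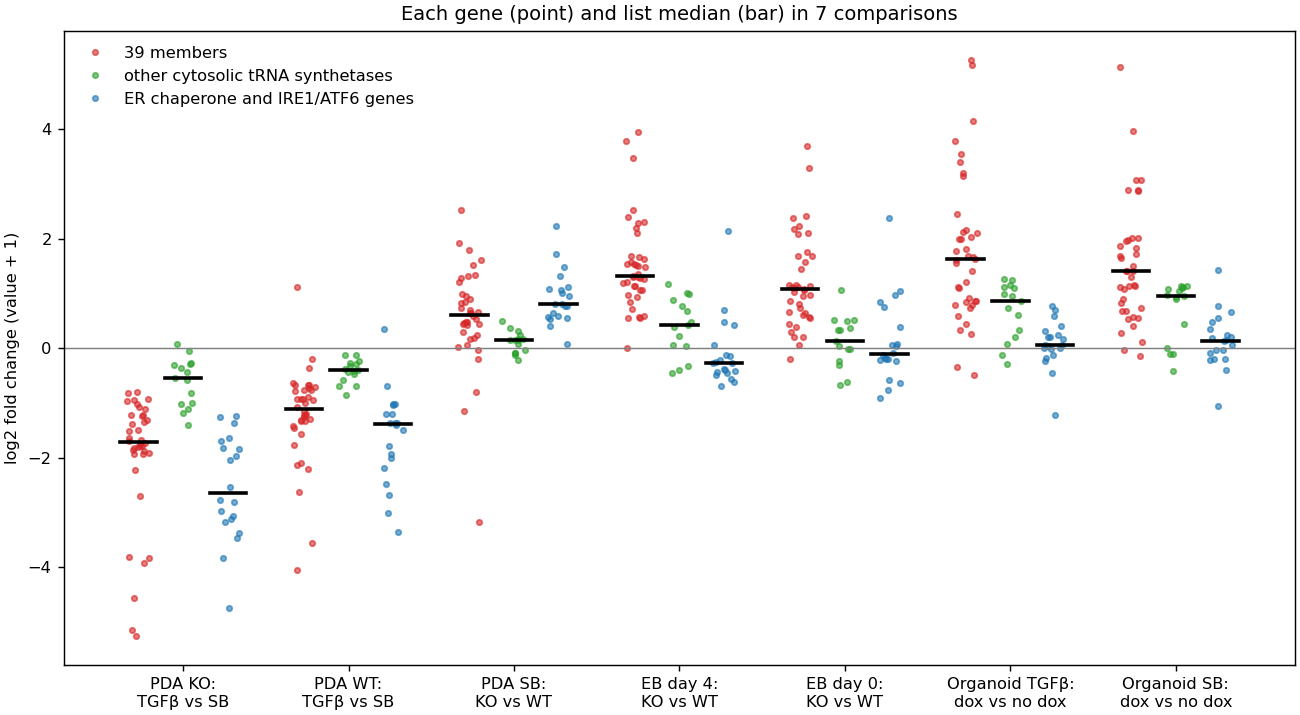
Log2 fold change of each gene (points) and list median (bars) in 7 comparisons, for the 39 members (red), 15 other cytosolic tRNA synthetases (green) and 20 ER chaperone and IRE1/ATF6 genes (blue). In the PDA comparisons the chaperone median lies on the same side of 0 as the members' median, while in KO stem cells at day 0 it stood at −0.10 beside 1.08 for the members.

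Beside the 5 member synthetases, 15 other cytosolic tRNA synthetases were followed. In KO cells under SB505124 3 rose and 1 fell in the PDA cells (median 0.16), against 28.9% of all genes higher and 27.2% lower, while all 5 member synthetases rose. In KO against WT in the embryonic stem cell system the 15 had 10 higher and 3 lower at day 4, against 27.8% of all genes higher and 28.4% lower, and 7 higher and 4 lower at day 0, against 33.9% higher and 33.3% lower. With dox 6 of 15 were at least 2-fold higher under TGFβ and 6 under SB505124, against 2 and 2 of the 5 members. Of all genes, 7.84% were at least 2-fold higher under TGFβ and 7.93% under SB505124. Summed over the 39 members, the share of all reads was 1.28 to 1.29% in KO PDA cells under SB505124, against 0.852 to 0.888% in WT. In the stem cells it was 1.28 to 1.30% in KO, against 0.749 to 0.754% in WT, and in organoids under SB505124 it was 0.985% with dox, against 0.402% without, sums that rest on the members with most reads.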

How the data were processed

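RNA-seq was analysed for 20 libraries, and the 15 ChIP-seq samples and the ATAC-seq sample were not analysed here. The deposited signal is 1 normalised read count per gene and library in a table per cell system. Per the submitters' processing notes, the tools were HTSeq 0.6.1p1, Bowtie2, DESeq2 3.4, HOMER and FastQC 0.11.5 and the build was mm10, with no role given for each. Per the labels' protocols the TruSeq RNA Sample Prep Kit v2 was used, which does not mark strand, so reads of a gene and its antisense partner cannot be told apart. Each library's deposited values were whole multiples of 1 step (100% of values, within 0.01 of a read), and these recovered reads gave depth and counting intervals.

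PDA and EB genes were kept where 2 or more of the 8 libraries reached 10, and organoid genes where the mean reached 10. Values were taken as log2(value + 1) and fitted with limma 3.58.1 (R 4.3.3, trend option) over 4 groups of 2. P-values were two-sided and adjusted over all tested genes by the Benjamini-Hochberg method. Errors are standard errors of the log2 fold change. Organoid ratios used the deposited values, with Clopper-Pearson intervals, and a call there was a 2-fold ratio of value + 1. The members and all lists were chosen with earlier results of these data known. In the text 16 members were given library by library, with the other called members of largest change. edgeR 4.0.16 and DESeq2 1.42.0 on the recovered reads were alternatives. Positions and promoters came from the RefSeq tables (GRCm38.p6).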

Additional observations from a re-analysis of the deposited data

Results flagged for a closer look

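In the EB table the change from day 0 to day 4 differed between KO and WT, by a test of the difference itself in limma, for 20 of the members named there. The KO change less the WT change, in log2 units, came to 1.56 for Nupr1, 1.50 for Psat1, 1.31 for Chac1, 1.17 for Gdf15, 0.73 for Slc7a3, 0.65 for Aldh1l2, 0.47 for Asns and 0.46 for Atf4. It came to 0.72 for Psph, 0.69 for Shmt2, 0.68 for Slc3a2, 0.68 for Sars, 0.66 for Gpt2 and 0.54 for Slc7a1. It was negative for Atf5 (−1.41), Stc2 (−0.63), Slc7a11 (−0.55), Sesn2 (−0.44), Cebpb (−1.23) and Wars (−1.09). The call for Cebpb was lost after quantile normalisation (adjusted p = 0.0538) and without WT day 4 replicate 1, KO day 0 replicate 2 or KO day 4 replicate 1 (differences of −0.91 to −0.87). The call for Slc7a11 was lost with DESeq2 (adjusted p = 0.0679), after quantile normalisation (0.119), without the filter (0.0504) and without WT day 0 replicate 1, WT day 4 replicate 1, KO day 0 replicate 2 or KO day 4 replicate 1 (differences of −0.49 to −0.36).

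In PDA cells Cbs under TGFβ was lower than under SB505124 in KO and higher in WT, with a difference of −2.12. Its KO values, at 3.63 to 12.1, were near the floor of detection, so the direction in KO rests on few reads. In the organoids the log2 ratio of TGFβ to SB505124 with dox, minus that without, was −0.45 for Nupr1 and −0.39 for Stc2, each lower under TGFβ with dox and higher without. Those organoid differences were not tested, with 1 library per condition, and Cbs carries no p-value because the response to TGFβ in PDA cells was among the results known when the list was made.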

How the results depend on the processing

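Counts of called members in the 9 replicated comparisons other than the PDA interaction stayed within 1.5 times under another pseudocount, filter or scaling, edgeR, DESeq2, the replicate block and each left-out library. In the PDA interaction the 23 members became 16 with the replicate block and 11 to 26 without single libraries, and the cause was not tested. At a 1.5-fold threshold, 12 members with dox and 21 without differed between TGFβ and SB505124 in the organoids, since that threshold is lower. Of 4406 alternative values for single genes, 4239 kept their direction and side of the threshold and 28 changed sign, each in a result that did not pass the test or had none. In the PDA interaction, ranges without single libraries were −0.24 to 0.53 for Slc7a3 and −0.22 to 0.014 for Stc2 (0.067 after quantile normalisation). In KO against WT under SB505124 they were −0.033 to 0.16 for Psat1 (quantile −0.054, rescaled −0.091), −0.20 to 0.24 for Phgdh (−0.12, −0.14), −1.15 to 0.76 for Gdf15 and −0.17 to 0.098 for Cth (quantile 0.0051). Under TGFβ they were −0.23 to 0.093 for Ddit3 (quantile 0.0080) and −0.17 to 0.13 for Sesn2 (quantile 0.037). In EBs they were −0.37 to 0.042 for Ddit3 in the interaction and −0.14 to 0.16 for Wars at day 4 (quantile −0.065, rescaled −0.087). Psat1 at day 0 passed as lower in KO with the replicate block (adjusted p = 0.0476). Nupr1 in organoids under SB505124 was at 0.057 after rescaling. Replicate numbers did not pair samples by the labels, and deviations of same-numbered libraries correlated at −0.51 to 0.14. Rescaling moved the median of all genes by 0.11 in KO cells under TGFβ. Depth limits Fgf21, Gdf15, Slc7a3 and Cbs in PDA cells, and 2 libraries a group limit every p-value.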

Other observations

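Genes upstream of ATF4 were followed as well. Of 15 genes for eIF2, its kinases, its exchange factor and their regulators, 5 rose and 3 fell in KO PDA cells under SB505124 (median −0.10), against 28.9% of all tested genes higher and 27.2% lower. In KO stem cells at day 0, 6 rose and 3 fell (median 0.06), against 33.9% of all tested genes higher and 33.3% lower. These counts lie close to the shares over all genes. Eif2ak3, which encodes the ER stress kinase PERK, stood at 4757 and 4629.9 in KO PDA cells under SB505124, against 1579 and 1467 in WT (1.62 ± 0.07, adjusted p = 2e-06). Impact, whose product restrains the amino acid sensing kinase GCN2, differed in opposite directions between the systems. It stood at 195 and 184 in KO PDA cells under SB505124, against 910.4 and 762 in WT (−2.13 ± 0.16, adjusted p = 3.26e-05), and at 10614 and 10497 in KO, against 4484 and 4422 in WT in stem cells at day 0 (1.24 ± 0.07, adjusted p = 3.16e-09). The difference between the systems was not tested, since their tables were normalised separately.

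Of 16 other genes linked to ATF4, 11 rose and 1 fell in KO PDA cells under SB505124, against 28.9% of all tested genes higher and 27.2% lower. In KO stem cells at day 0, 10 rose and 4 fell, against 33.9% of all tested genes higher and 33.3% lower. Atf3, for a stress-induced repressor, stood at 802 and 861 in KO, against 112 and 124 in WT in stem cells at day 0 (2.81 ± 0.17, adjusted p = 5.34e-09). Ddit4, encoding the mTORC1 inhibitor REDD1, went against the members under TGFβ, at 2076 and 1738 in KO cells under TGFβ, against 764 and 808 in KO cells under SB505124, and at 5037 and 4907 in WT cells under TGFβ, against 798 and 901 in WT cells under SB505124. In organoids Ddit4 was also higher under TGFβ, with ratios to SB505124 of 2.06 (2.01 to 2.11) with dox and 2.74 (2.65 to 2.84) without.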
